A study of Mus musculus with 18 samples.

Results

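The genes of ketone body metabolism were followed in mouse round spermatids (RS), the haploid cells found between meiosis and the elongation of the sperm head. They were Oxct1, Oxct2a, Oxct2b, Bdh1, Bdh2 and Acat1, which are 6 of the 54232 genes in the deposited count table. They were selected by name, with results of these libraries already known. Oxct2a and Oxct2b were selected to be set against Oxct1, and Bdh1 was selected because its level differed between KI and KO. The ratio of Oxct2 to Oxct1 and all values of Bdh1 are therefore a description with no test. The KI against KO values of the other members are given the same way.

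RS were isolated from mice of 3 genotypes aged 75 to 85 days, with 6 libraries each and 18 in all. WT mice carry an intact gene for GRTH, the RNA helicase encoded by Ddx25. GRTH is made in Leydig cells and germ cells, and KO mice lack it. KI mice are transgenic for a human GRTH gene with the missense mutation R242H and have no phosphorylated GRTH. The authors state that their non-phosphorylated GRTH is unaffected. No treatment is named for any group. The libraries were strand-specific and made without selection for polyadenylated RNA. Levels are given in normalized CPM, the usual counts-per-million unit after scaling with TMM factors, and levels of different genes are compared only per kilobase of exon length.

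Ketone bodies are small acids that the liver makes from acetyl-CoA and that other tissues burn. BDH1 interconverts acetoacetate and 3-hydroxybutyrate, the main ketone bodies, in mitochondria. In the tissues that use them, OXCT1 moves CoA from succinyl-CoA to acetoacetate, and ACAT1 splits the product into acetyl-CoA for the citric acid cycle. Mice carry testis copies of Oxct1, the genes Oxct2a and Oxct2b, whose proteins are known from haploid spermatids and sperm. BDH2 is a cytosolic dehydrogenase related to BDH1.

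Each library held 18766971 to 26776555 counts on genes. Ddx25 was at 538 to 607 CPM in WT, 47.7 to 90.9 CPM in KO and 0.0456 to 0.519 CPM in every KI library but the one labelled KI 4. These are counts on the mouse gene. Whether they include RNA of the human gene in KI was not tested, so they do not measure all GRTH RNA there. The library labelled KI 4 held 56.9 CPM, inside the KO range, and goes against its label. It was also the library closest to KO 2 (pair index 1.59, where 1 is counting noise alone). Another 6 pairs of libraries of the same genotype lay nearer to each other than to the rest, with an index of 2.05 to 3.24. Nothing states that the libraries came from separate animals, so p-values measure the spread between these libraries and may be too small. Summed markers of RS lay between 727 and 1200 CPM in WT, 517 and 1190 CPM in KO, and 564 and 814 CPM in KI, where 4 of 8 were lower by any amount. Summed markers listed for elongating spermatids were higher in WT, at 14200 to 19800 CPM against 1660 to 4190 CPM in KO and 2200 to 3420 CPM in KI. The authors state that RS of both mutants fail to elongate. They also state that RNA of Tnp2 and Prm2, which are among these markers, is already made and stored in RS. This sum therefore does not measure elongating cells alone. Leydig cell markers were at 12 to 23.7 CPM in WT, 35.1 to 61.6 CPM in KO and 16 to 76.8 CPM in KI, with 7 of 8 higher by any amount in each mutant. Sertoli cell markers were at 10 to 22.3 CPM in all libraries, with 2 of 8 lower by any amount in each mutant. Endothelial markers were at 11.3 to 18 CPM in WT, 16.9 to 30 CPM in KO and 20.2 to 28.2 CPM in KI, and macrophage markers at 7.31 to 12.3, 8.83 to 19.2 and 11.8 to 21.6 CPM. Spermatocyte markers were at 753 to 993, 934 to 1180 and 935 to 1070 CPM, and those of spermatogonia at 30.5 to 41.1, 34.3 to 73 and 21.3 to 76.5 CPM. Summed peritubular myoid markers lay between 5.03 and 8.21 CPM and summed red blood cell markers between 0.927 and 3.79 CPM. Single markers moved within these sums. Of all genes tested, 16.4% were higher and 13.5% lower by any amount in KO, and 16.1% and 15.4% in KI. Of 8 spermatocyte markers, 3 were higher and 2 lower in KO, and 2 higher and 1 lower in KI. Of 5 macrophage markers tested, 2 were higher in KO and 3 in KI. Of 5 endothelial markers tested, 2 were higher in each mutant. Of 7 spermatogonia markers tested, 2 were higher in KO and 1 in KI. Of 5 myoid markers tested, 3 were higher and 1 lower by any amount in KO, and 1 was higher and 1 lower in KI. Of 2 red blood cell markers tested, 1 was lower in KO, and 1 was higher and 1 lower in KI. The part of these cells in the results was not tested.

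Oxct2a and Oxct2b are nearly the same gene, and the sequences that tell them apart carry their counts. Oxct2a (ENSMUSG00000076436) lies on the minus strand of chromosome 4 of GRCm38, from 123321875 to 123323634, within an intron of Bmp8a. Oxct2b (ENSMUSG00000076438) lies on the plus strand of the same chromosome, from 123116266 to 123118000, within an intron of Bmp8b. Both hosts run in the same direction as the gene they contain, and no exon is shared. The transcripts have 1760 and 1735 bases and are identical at 1700 of 1735 aligned bases (98.0%). Against Oxct1, Oxct2a is identical at 71.6% and Oxct2b at 71.9% of aligned bases. A window of coding bases 634 to 753 of the 1560 in each gene is shown because 5 bases differ there, in capitals, and a read across it can be assigned to 1 copy.
Oxct2a: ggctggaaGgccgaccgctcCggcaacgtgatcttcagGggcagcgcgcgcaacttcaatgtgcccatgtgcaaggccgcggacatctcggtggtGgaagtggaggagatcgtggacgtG
Oxct2b: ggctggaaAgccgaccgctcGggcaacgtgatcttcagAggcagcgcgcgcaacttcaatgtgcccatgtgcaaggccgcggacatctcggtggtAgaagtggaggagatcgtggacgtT
Of all 100-base windows, 25.9% of those in Oxct2a and 26.3% of those in Oxct2b also occur in the other copy. Of all 50-base windows, 41.7% and 42.3% do. Fragments that matched both were left out of the counts, so the levels of both genes miss some fragments and remain uncertain to that extent.

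The regions around the start sites of both genes are shown because the genes fell together. Each runs from 250 bases before to 50 bases after the RefSeq start, chr4:123323630-123323929 on the minus strand for Oxct2a and chr4:123115998-123116297 on the plus strand for Oxct2b (GRCm38.p6). Capitals mark the 3 runs of at least 20 bases that both hold, of 33, 30 and 28 bases.
Oxct2a: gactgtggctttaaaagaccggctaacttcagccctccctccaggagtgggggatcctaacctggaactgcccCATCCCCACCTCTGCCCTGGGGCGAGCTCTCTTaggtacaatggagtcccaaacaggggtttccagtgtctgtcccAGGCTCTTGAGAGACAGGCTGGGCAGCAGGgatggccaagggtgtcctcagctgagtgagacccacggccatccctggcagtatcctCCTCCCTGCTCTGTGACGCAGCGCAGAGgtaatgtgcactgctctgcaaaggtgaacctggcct
Oxct2b: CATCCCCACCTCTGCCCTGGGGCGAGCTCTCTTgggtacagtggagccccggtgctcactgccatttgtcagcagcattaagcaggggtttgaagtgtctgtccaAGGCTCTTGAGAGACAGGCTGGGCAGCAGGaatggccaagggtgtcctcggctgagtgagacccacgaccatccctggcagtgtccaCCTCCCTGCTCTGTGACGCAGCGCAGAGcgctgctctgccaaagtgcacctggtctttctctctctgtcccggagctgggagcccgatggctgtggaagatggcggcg
None of the 3 runs was found in the start-site window of another gene. Exact runs of 28 bases or more would seldom recur in any case, so this does not set them apart. Whether the runs have a role in the fall was not tested. The letters TGACG, part of the site that CREM and CREB bind, were searched on both strands and are in the third run of both genes, as they are in 20.8% of all 32851 RefSeq windows. The whole site TGACGTCA, which holds those letters, is in neither window and in 1.79% of all windows. Of the other members, Oxct1 and Bdh2 had 1 window each and Bdh1 had 2, and Acat1 is named only.

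Oxct2a and Oxct2b were the members with the highest levels per length in WT RS. In WT their levels were 125 ± 23.4 and 130 ± 21.6 CPM per kilobase (SD, n = 6), which placed them at the 98.1 and 98.2 percentiles of the 21058 genes tested, and their ranges of 99.8 to 156 and 104 to 158 overlapped almost wholly. Oxct1 came next at 15.9 ± 1.16 CPM per kilobase, and its highest library, at 17, lay below the lowest of either copy. Acat1 followed at 3.18 ± 0.534, Bdh1 at 1.56 ± 0.163 and Bdh2 at 0.143 ± 0.0146 CPM per kilobase, with no overlap between neighbours in this order. In KO the order was Oxct2a (29.3 ± 6.75), Oxct2b (22.7 ± 6.95), Oxct1 (11.2 ± 2.8), Bdh1 (3.30 ± 0.361), Acat1 (3.04 ± 0.341) and Bdh2 (0.0991 ± 0.0472). There the ranges of Oxct2a and Oxct2b overlapped, as did those of Bdh1 and Acat1, and the lowest Oxct2b library met the highest of Oxct1 at 14.2. In KI the order was the same, with 26.3 ± 5.58, 20.6 ± 3.51, 11.2 ± 2.39, 6.12 ± 1.44, 2.72 ± 0.591 and 0.0954 ± 0.0294 CPM per kilobase, and only the ranges of Oxct2a and Oxct2b overlapped.

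**Figure D1:**
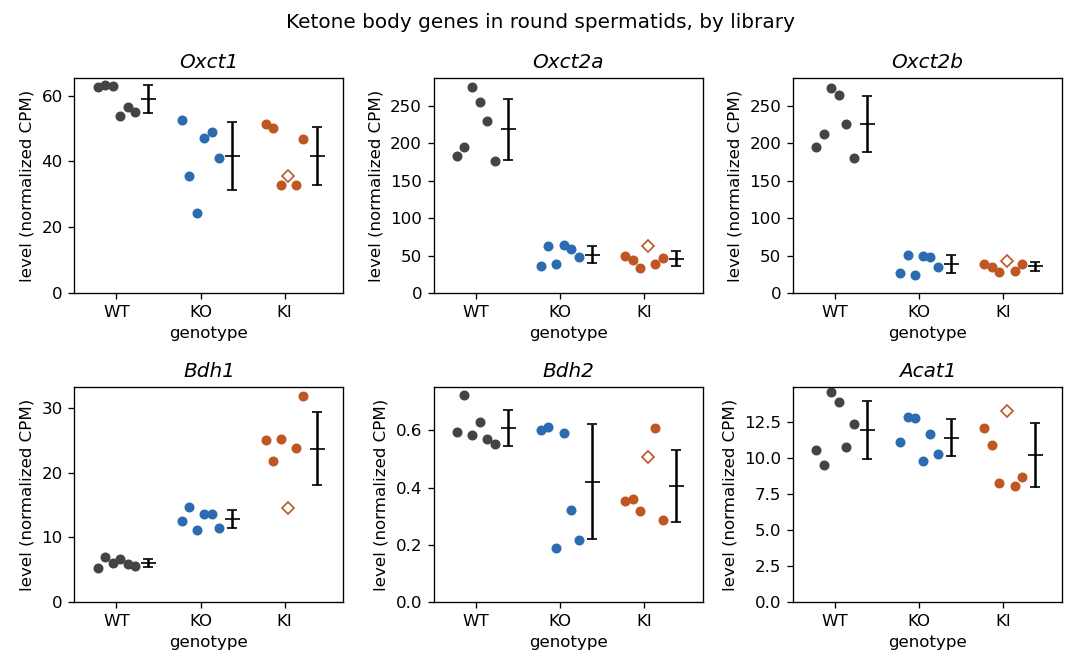
Level in normalized CPM of each member in each library, by genotype, on linear axes that start at 0. Each point is 1 library, the open diamond is the library labelled KI 4, and the bar beside each group is its mean ± SD (n = 6). Oxct2a and Oxct2b were lower in every KO and KI library than in any WT library, and Bdh1 was higher.

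Oxct2b fell in both mutants, to 17.5% of its WT mean in KO and 15.9% in KI. In WT libraries 1 to 6 it was 195, 212, 274, 264, 226 and 180 CPM. In KO it was 27.1, 51.3, 24.7, 49.8, 48.7 and 34.8 CPM, and in KI 39.1, 35.3, 28.3, 43.4, 28.8 and 39.4 CPM. Every WT library was above every mutant library, and the KO and KI ranges overlapped. The log2 fold change was -2.51 in KO (SE 0.19, adjusted p = 7.31e-06 against 1 log2 unit, edgeR) and -2.66 in KI (SE 0.19, adjusted p = 1.64e-06). Without the library labelled KI 4 it was -2.72 in KI (SE 0.20, adjusted p = 3.74e-06, edgeR). In bulk RNA, fewer cells of a type and less of the RNA in each cell cannot be told apart. Past 1 log2 unit, 1.13% of all genes tested were lower in KO and 1.43% in KI. The markers listed for elongating spermatids moved with Oxct2b, since 8 of 8 were lower by that rule in KO and in KI. Of these, Prm1, which encodes a protamine, had a log2 fold change of -2.59 in KO and -2.75 in KI. Their part in the result was not tested, and by the authors' account RNA of Tnp2 and Prm2 is already made in RS.

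Oxct2a fell too, to 23.5% of its WT mean in KO and 21.1% in KI. Its levels were 183, 195, 275, 256, 230 and 176 CPM in WT libraries 1 to 6. They were 36.5, 62.3, 39.4, 64.0, 58.4 and 48.4 CPM in KO and 49.6, 44.0, 34.0, 62.7, 39.5 and 47.5 CPM in KI. Again no mutant library reached the WT range, and the highest KI library was the one labelled KI 4. The log2 fold change of Oxct2a was -2.09 in KO (SE 0.17, adjusted p = 0.00019 against 1 log2 unit, edgeR) and -2.25 in KI (SE 0.18, adjusted p = 2.84e-05). It was -2.35 in KI without the library labelled KI 4 (SE 0.18, adjusted p = 1.43e-05, edgeR).

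Oxct1, the enzyme of most tissues, fell less than its testis copies. It was 62.6, 63.1, 62.8, 53.8, 56.6 and 55.1 CPM in WT libraries 1 to 6. The KO libraries held 52.6, 35.7, 24.4, 47.1, 48.9 and 41.0 CPM, and the KI libraries 51.4, 50.2, 32.8, 35.7, 32.7 and 46.9 CPM. All mutant libraries were below all WT libraries, but KO 1 and KI 1 came within a few CPM of them. The log2 fold change was -0.50 in KO (SE 0.16, adjusted p = 0.0254 for a change of any amount, edgeR) and -0.50 in KI (SE 0.16, adjusted p = 0.0243), and it did not pass 1 log2 unit in either. When the close pairs of libraries were summed and the library labelled KI 4 was left out, the change of Oxct1 was -0.56 in KO (adjusted p = 0.105, edgeR) and -0.41 in KI (adjusted p = 0.354), neither past the threshold. The summed level per length of the testis copies was 16 ± 3.12 times that of Oxct1 in WT (12.8 to 20.5), 4.82 ± 1.40 times in KO (2.56 to 6.75) and 4.28 ± 1.05 times in KI (3.34 to 6.29), each over 6 libraries. The lowest ratio in WT was thus above the highest ratio in either mutant, and no library had less of the Oxct2 transcripts per length than of Oxct1.

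Acat1, the thiolase that completes ketone body use, was not called in either comparison. The lowest, median and highest WT libraries were at 9.52, 11.6 and 14.6 CPM, those of KO at 9.79, 11.4 and 12.9 CPM and those of KI at 8.04, 9.81 and 13.3 CPM. The 3 ranges overlapped. The log2 fold change was -0.07 in KO (SE 0.15, adjusted p = 0.813, edgeR) and -0.22 in KI (SE 0.15, adjusted p = 0.296). Bdh2 was near the limit of detection, with 4 to 18 counts a library. WT libraries held 0.609 ± 0.0619 CPM, KO libraries 0.421 ± 0.201 and KI libraries 0.406 ± 0.125 (SD, n = 6). The log2 fold change was -0.53 in KO (SE 0.30, adjusted p = 0.22, edgeR) and -0.59 in KI (SE 0.30, adjusted p = 0.163), neither past the threshold.

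Counted over the 5 members other than Bdh1, Oxct2a and Oxct2b were lower past 1 log2 unit in KO, where 1.13% of all genes tested were lower by that rule and 0.598% were higher. The same number, 2 of 5, was lower in KI, against 1.43% lower and 0.522% higher over all genes. By a change of any amount, 3 of 5 were lower in each comparison. The share over all genes was 13.5% lower and 16.4% higher in KO, and 15.4% lower and 16.1% higher in KI. Oxct1, Oxct2a and Oxct2b did not overlap with WT in either mutant. Of all genes, 6.44% were lower with no overlap in KO and 7.91% in KI, and 6.62% and 5.97% were higher with no overlap. All 6 members passed the filter on low counts. KO and KI were set against the same WT libraries, so these 2 counts are not independent of each other. The members were chosen with results of these libraries known, so the counts are a description and no test of the members as a set. The authors had already named Oxct2b among the genes changed in KO and KI. The p-values of Oxct2a and Oxct2b carry the same limit.

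The Oxct2 transcripts did not fall equally. Oxct2a took 48.4%, 48.0%, 50.1%, 49.3%, 50.5% and 49.3% of the summed Oxct2a and Oxct2b counts in WT libraries 1 to 6. In KO its share was 57.4%, 54.8%, 61.5%, 56.3%, 54.5% and 58.2%, and in KI 55.9%, 55.5%, 54.5%, 59.1%, 57.8% and 54.6%. The copies were thus near equal in each WT library, and Oxct2a held the larger share in every mutant library. WT libraries had a mean share of 49.3% ± 0.969, KO libraries 57.1% ± 2.55 and KI libraries 56.2% ± 1.82 (SD, n = 6). The difference from WT was 7.85 percentage points in KO and 6.99 in KI, each with p = 0.00216 (exact permutation test, two-sided, adjusted p = 0.00324 over 3 comparisons). That p is the smallest that 6 against 6 libraries can give. KI and KO differed by -0.86 points (exact permutation p = 0.539, adjusted p = 0.539). Without the library labelled KI 4 the difference of KI from WT was 6.42 points (exact permutation p = 0.00216). With close pairs of libraries summed and that library left out, the difference from WT was 8.2 points in KO (exact permutation p = 0.0179). In KI it was then 6.26 points (exact permutation p = 0.1, not past the threshold and the smallest that 3 against 3 allow). The host genes of both copies were low, with Bmp8a at 0.471, 0.475 and 0.294 CPM and Bmp8b at 0.711, 0.601 and 0.605 CPM in WT, KO and KI on average. Neither host changed by any amount in KO (adjusted p = 0.970 and 0.579, edgeR) or in KI (adjusted p = 0.173 and 0.571), although Bmp8a passed in KI without WT 4 (-0.83, adjusted p = 0.0854) and without the library labelled KI 4 (-0.90, adjusted p = 0.0771).

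**Figure D2:**
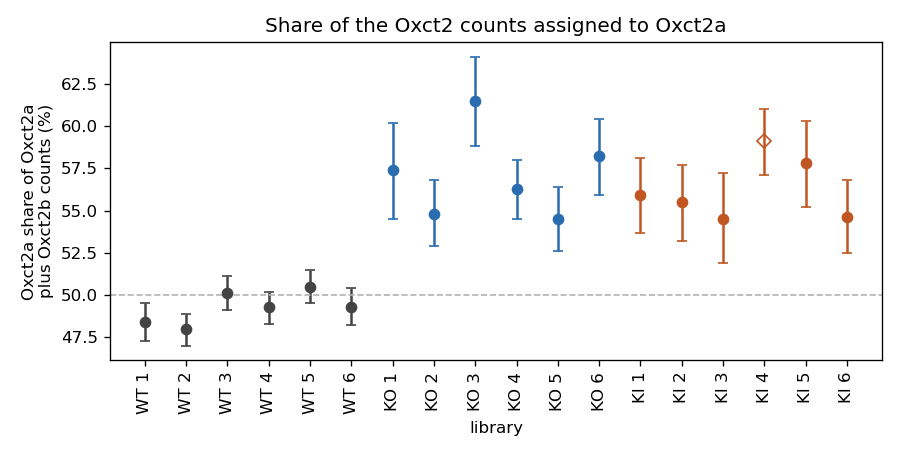
Oxct2a counts as a percent of Oxct2a plus Oxct2b counts in each library, coloured by genotype, with 95% exact binomial (Clopper-Pearson) intervals, which cover counting error only. The axis does not start at 0, the dashed line is an equal share and the open diamond is the library labelled KI 4. WT libraries lay at 48.0% to 50.5%, KO at 54.5% to 61.5% and KI at 54.5% to 59.1%.

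Bdh1 was the member that rose, and the one for which KI and KO stood apart. It was 5.21, 6.91, 6.11, 6.69, 5.92 and 5.66 CPM in WT libraries 1 to 6. It was 12.6, 14.7, 11.1, 13.6, 13.7 and 11.4 CPM in KO and 25.1, 21.9, 25.3, 14.6, 23.8 and 31.9 CPM in KI. The 3 genotypes did not overlap except for the library labelled KI 4, whose 14.6 CPM was within the KO range. The KO mean was 2.11 times and the KI mean 3.91 times the WT mean, and KI was 1.85 times KO. On the log2 scale the difference was 1.08 in KO against WT (SE 0.15), 1.97 in KI against WT (SE 0.15) and 0.89 in KI against KO (SE 0.14). Without the library labelled KI 4 these were 2.07 in KI against WT and 0.99 in KI against KO, and KI was 25.6 ± 3.77 CPM (SD, n = 5). These values chose Bdh1 and carry no test. In KI against KO, 0.0997% of all genes tested changed by any amount. Of the other members, Oxct1 had the same mean in KI as in KO to 3 digits. The KI mean was 0.897 times the KO mean for Oxct2a, 0.907 times for Oxct2b, 0.963 times for Bdh2 and 0.896 times for Acat1.

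Bdh1 (ENSMUSG00000046598) lies on the plus strand of chromosome 16 from 31422280 to 31458901, and the antisense gene Gm15743 lies within it on the minus strand, from 31427876 to 31429776. Gm15743 was 5.67, 5.86, 6.48, 6.30, 4.69 and 4 CPM in WT libraries 1 to 6. In KO it was 5.72, 9.52, 4.51, 7.43, 7.89 and 6.45 CPM and in KI 10.1, 8.86, 11.3, 7.66, 10.6 and 12 CPM. Every KI library was above every WT library, whereas KO overlapped with both, and the lowest KI library was the one labelled KI 4. Gm15743 rose in KI (log2 fold change 0.88, SE 0.17, adjusted p = 0.000553, edgeR) and in KI without the library labelled KI 4 (0.94, adjusted p = 0.000338). In KO its log2 fold change was 0.33 (SE 0.17, adjusted p = 0.174) and in KI against KO it was 0.54 (SE 0.17, adjusted p = 0.582), neither past the threshold, but its change in KO passed without KO 3 (adjusted p = 0.0627). Fragments were counted by strand. Overlap of exons on opposite strands and fragments counted on the wrong strand were not measured. Whether the counts of Gm15743 are separate from those of Bdh1 was therefore not tested. Beside Bdh1, Gm49736 was lower in KO (-0.85, adjusted p = 0.0464, edgeR, and 0.138 with close pairs summed) and in KI (-0.82, adjusted p = 0.0538), the latter not without WT 3, KI 3 or KI 6 (adjusted p = 0.115 to 0.139), and Gm49695 did not pass the threshold in either (adjusted p = 0.376 and 0.462).

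**Figure D3:**
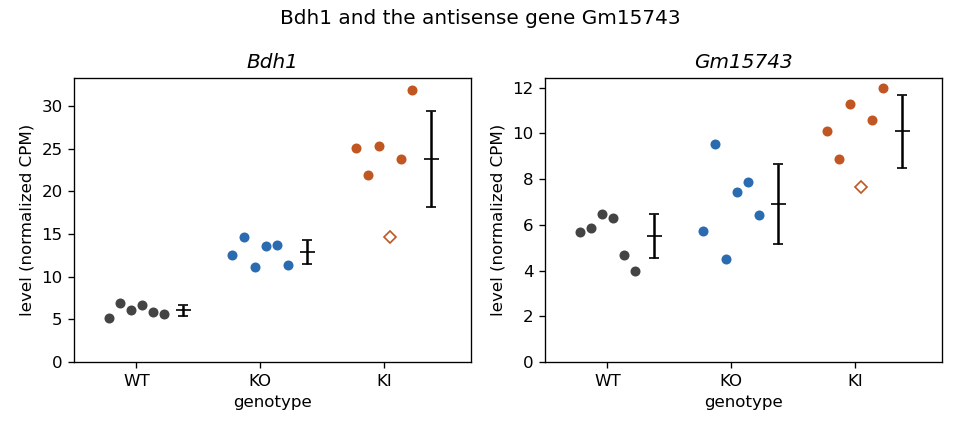
Level in normalized CPM of Bdh1 and of Gm15743, the antisense gene within it, in each library by genotype, on linear axes that start at 0. Each point is 1 library, the open diamond is the library labelled KI 4, and bars are mean ± SD (n = 6). Bdh1 lay at 5.21 to 6.91 CPM in WT, 11.1 to 14.7 in KO and 14.6 to 31.9 in KI, and Gm15743 at 4 to 6.48, 4.51 to 9.52 and 7.66 to 12 CPM.

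The genes within 20 kb of the other members are given in turn. Of all genes tested, 16.4% were higher and 13.5% lower by any amount in KO, and 16.1% and 15.4% in KI. Npat, a regulator of histone gene transcription beside Acat1 (ENSMUSG00000032047, chromosome 9, 53580522 to 53610382), rose in KO (log2 fold change 0.34, SE 0.11, adjusted p = 0.0242, edgeR) and in KI (0.49, SE 0.11, adjusted p = 0.00185). The rise in KO did not pass with no filter on low counts (adjusted p = 0.147, edgeR) or with close pairs summed and the library labelled KI 4 left out (adjusted p = 0.186). Cul5, on its other side, did not pass the threshold (adjusted p = 0.323 and 0.665). Gm17244, antisense to Oxct2b and at 0.973 CPM in WT, was -0.45 in KO (adjusted p = 0.239, edgeR) and fell by 0.73 in KI on the log2 scale (adjusted p = 0.0476), which did not pass without WT 3 or WT 4 (adjusted p = 0.109 and 0.114). Ppie, beside Oxct2b, Gm2093, beside Oxct1 (ENSMUSG00000022186, chromosome 15, 4026383 to 4155344), and Cenpe, beside Bdh2 (ENSMUSG00000028167, chromosome 3, 135281221 to 135304426), were not called in KO (adjusted p = 0.358, 0.900 and 0.618, edgeR) or in KI (adjusted p = 0.550, 0.365 and 0.558). BC037032 and Gm15632, antisense within Oxct1, and Slc9b2 beside Bdh2 had at most 10 counts in any library and did not pass the low-count filter.

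The other genes of the pathway moved less than the Oxct2 copies, which were selected with their results known. Of 95 genes in 7 lists of related steps, none of them a member, 83 passed the low-count filter. None of the 83 passed 1 log2 unit in KO or KI by edgeR. Of all genes tested, 1.13% were lower and 0.598% higher past that threshold in KO, and 1.43% and 0.522% in KI. With shares this small, 0 of 83 is near the background and does not set the pathway genes apart. At an unadjusted p under 0.05 against that threshold, 1 passed in KO and 0 in KI, and DESeq2 also called 0 in both. By a change of any amount, 14 rose and 5 fell in KO, where 16.4% of all genes tested were higher and 13.5% lower, and 16 rose and 5 fell in KI, where 16.1% were higher and 15.4% lower. These all-gene shares are the background for the counts by list that follow. The median log2 fold change of the 83 was 0.16 in KO and 0.17 in KI, beside 0.03 and 0.05 over all genes tested. With close pairs summed and the library labelled KI 4 left out, 7 of the 83 changed by any amount in KO and 9 in KI. This setting leaves 3 WT, 5 KO and 3 KI samples. The share of all genes called under it is not given here, so the drop is not shown to be particular to these genes. Besides Oxct1, the genes named and tested here that lost their change in KO under this setting were Acat2 (adjusted p = 0.191, edgeR), Pdha1 (0.131), Idh1 (0.128), Etfa (0.197), Acss2 (0.12), Npat (0.186) and Gm49736 (0.138). In KI they were Acat2 (adjusted p = 0.167, edgeR), Pdha1 (0.27), Acaca (0.33), Gm17244 (0.177) and Gm49736 (0.201). With no filter on low counts, those lost were Acat2 (adjusted p = 0.184, edgeR), Pdha1 (0.111), Etfa (0.135) and Npat (0.147) in KO, and Gm17244 (0.127) and Gm49736 (0.1) in KI. In KI against KO none of the 83 changed by any amount by edgeR or by DESeq2, and 1 had an unadjusted p under 0.05.

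**Figure D4:**
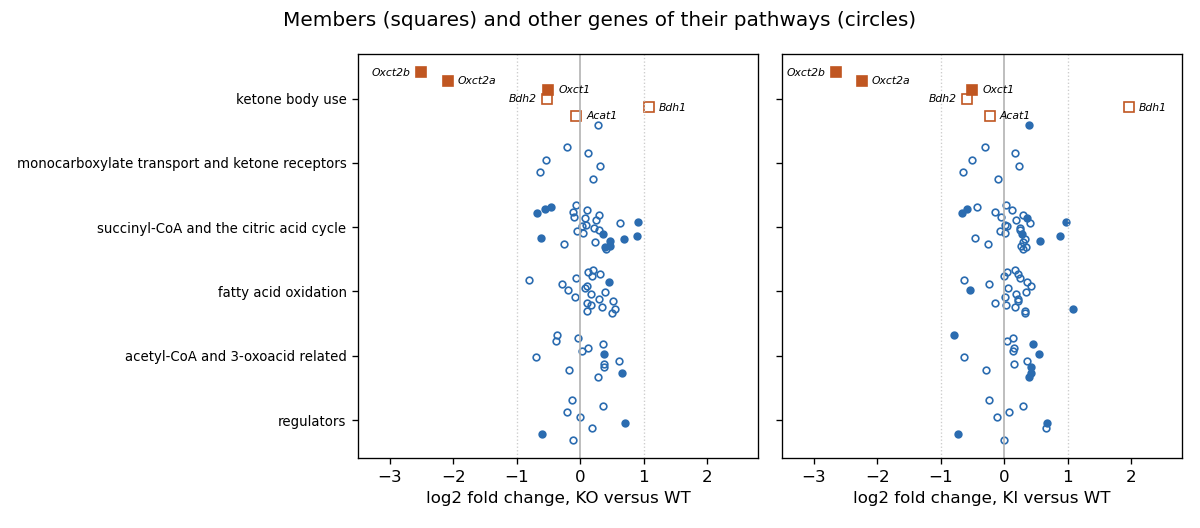
Log2 fold change in KO (left) and KI (right) against WT for the 6 members (squares) and for 78 other genes tested (circles), in 6 of the 7 lists, with Aacs shown in both lists that hold it. Filled symbols changed by any amount (adjusted p under 0.1, edgeR), open ones did not, Bdh1 is open because it was not tested, and dotted lines mark 1 log2 unit. Oxct2a and Oxct2b lie at -2.09 and -2.51 in KO and at -2.25 and -2.66 in KI, lower than all other genes shown.

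Acat2, the cytosolic thiolase and the gene given of the list on ketone body synthesis, rose by 0.48 in KO (SE 0.18, adjusted p = 0.0531, edgeR) and by 0.62 in KI (SE 0.18, adjusted p = 0.0117) on the log2 scale. Its change in KO was lost when WT 2, WT 4, KO 3 or KO 6 was left out (adjusted p = 0.108 to 0.145), and neither change passed with close pairs summed (adjusted p = 0.191 and 0.167).

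Among 28 genes of the citric acid cycle and its supply of succinyl-CoA, the CoA donor for OXCT, 7 rose and 4 fell in KO, and 5 rose and 2 fell in KI, beside all-gene shares of 16.4% higher and 13.5% lower in KO and 16.1% and 15.4% in KI. The median log2 fold change was 0.16 in KO and 0.22 in KI. Sdhb, a subunit of succinate dehydrogenase, fell from 58.1 ± 11.3 CPM in WT to 36.2 ± 4.17 in KO and 36.6 ± 7.90 in KI (SD, n = 6). Its log2 fold change was -0.68 in KO (SE 0.15, adjusted p = 0.0017, edgeR) and -0.67 in KI (SE 0.15, adjusted p = 0.00186). Idh1, the cytosolic isocitrate dehydrogenase, was 15.2 ± 4.58 CPM in WT and 9.86 ± 1.76 in KO (log2 fold change -0.62, SE 0.20, adjusted p = 0.0276, edgeR). In KI its log2 fold change was -0.46 (SE 0.20, adjusted p = 0.101, edgeR), and it passed when any of WT 1, WT 2, KO 2, KI 1 or KI 2 was left out (adjusted p = 0.0407 to 0.0999). Idh2, its mitochondrial counterpart, rose from 0.480 ± 0.172 to 0.882 ± 0.222 CPM in KO (0.89, SE 0.25, adjusted p = 0.0135) and 0.879 ± 0.128 in KI (0.88, SE 0.25, adjusted p = 0.0134). Idh2 was low, with 5 to 29 counts a library. Pdha1, the pyruvate dehydrogenase subunit of somatic cells, rose from 0.584 ± 0.261 CPM to 1.11 ± 0.425 in KO (adjusted p = 0.0745, edgeR) and 1.16 ± 0.557 in KI (adjusted p = 0.0504). It was low, with 5 to 48 counts a library. Its counterpart Pdha2, in the same list, was at 184 ± 43.9, 219 ± 28.4 and 210 ± 47.6 CPM in WT, KO and KI. Without the library labelled KI 4 the change of Pdha1 in KI was 0.73 (adjusted p = 0.145, and 0.107 and 0.111 without KI 1 or WT 5), and leaving out any of WT 3, WT 5, KO 1, KO 2 or KO 4 raised its adjusted p in KO to 0.118 to 0.180.

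Fatty acid oxidation, another source of mitochondrial acetyl-CoA, had 1 of 22 genes higher in KO, and 1 higher and 1 lower in KI. The 1 in KO was Etfa, a subunit of the electron carrier of acyl-CoA dehydrogenases, at 4.63 ± 0.656 CPM in WT and 6.29 ± 1.16 in KO (log2 fold change 0.44, SE 0.15, adjusted p = 0.0398, edgeR). It did not pass without KO 2 (adjusted p = 0.121), and in KI, where its log2 fold change of 0.35 just missed the threshold (SE 0.15, adjusted p = 0.1, edgeR), it passed when any of WT 3, WT 4, KO 2, KO 6, KI 1, KI 5 or KI 6 was left out (adjusted p = 0.0329 to 0.0965). Those in KI, named after their values were seen, were Acadl (1.09, SE 0.29, adjusted p = 0.00844) and Decr1 (-0.54, SE 0.15, adjusted p = 0.0107). Of 14 genes tested around acetyl-CoA and other oxoacids, 2 rose in KO, and 5 rose and 1 fell in KI. Acaca, which makes malonyl-CoA, was 0.66 in KO (SE 0.16, adjusted p = 0.00453, edgeR) and 0.42 in KI (SE 0.16, adjusted p = 0.0636), and its change in KI did not pass without WT 5, KI 1 or KI 2 (adjusted p = 0.109 to 0.143). Acss2, which makes acetyl-CoA from acetate, rose from 38.7 ± 3.67 CPM in WT to 50.4 ± 3.64 in KO (0.38, SE 0.09, adjusted p = 0.00456, edgeR) and 56.4 ± 2.52 in KI (0.54, SE 0.09, adjusted p = 0.000151). Aacs, which activates acetoacetate in the cytosol without OXCT and is also the remaining gene of the ketone body use list, was 0.28 in KO (SE 0.13, adjusted p = 0.123) and 0.40 in KI (SE 0.13, adjusted p = 0.0257).

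Transport and receptor genes were not called. Of 12 listed, 6 passed the filter and none changed by any amount by edgeR in KO or KI (2 and 1 had an unadjusted p under 0.05). WT, KO and KI libraries held 537 ± 67.8, 467 ± 134 and 437 ± 69.2 CPM of the transporter Slc16a7, and 241 ± 36, 275 ± 71.6 and 225 ± 50.1 CPM of Bsg, a chaperone of such transporters (SD, n = 6). The 3-hydroxybutyrate receptor Hcar2 had at most 1 count in any library. Of 8 regulators tested, 1 rose and 1 fell in each mutant. Crem, the activator of many haploid germ cell genes, fell from 376 ± 57.3 CPM to 248 ± 25.3 in KO (-0.60, SE 0.13, adjusted p = 0.00189, edgeR) and 227 ± 36.9 in KI (-0.73, SE 0.13, adjusted p = 0.000284). Ppargc1a, a coactivator of mitochondrial genes, rose from 4.95 ± 0.333 CPM to 8.05 ± 0.944 in KO (0.70, SE 0.14, adjusted p = 0.000607, edgeR) and 7.90 ± 1.57 in KI (0.67, SE 0.14, adjusted p = 8e-04). Without the library labelled KI 4, 18 of the 83 pathway genes changed by any amount in KI, against 21 with it.

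Likeness to a member was measured as the root mean square difference, over 18 libraries, of log2 CPM less the WT mean of each gene, among 16904 other genes with a mean of at least 1 CPM. It is a description with no test. The 5 genes nearest to Oxct2b were Fscn3, an actin-bundling protein (0.104 log2 units), Plekho2 (0.149), Dydc2 (0.167), Gm498 (0.168) and 1700080E11Rik (0.176). Fscn3 was at 118 ± 13.3, 21.2 ± 6.13 and 19.5 ± 3.79 CPM in WT, KO and KI. Oxct2a, the near-identical copy, came at place 40 with 0.367 log2 units. No gene was as near to Bdh1, for which the 5 nearest were Mapkapk2, a kinase of the p38 pathway (0.384), Dzip1l (0.430), Kcnh8, a potassium channel (0.430), Clip2, a microtubule linker (0.439), and Tex13c2 (0.457). Mapkapk2 was at 6.04 ± 0.753, 12.8 ± 2.21 and 16.5 ± 3.29 CPM (SD, n = 6), so its KI mean exceeded its KO mean by less than that of Bdh1 did.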

How the data were processed

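Messenger RNA of RS was sequenced in 18 libraries, 6 each of WT, KO and KI, grouped by their titles. The authors trimmed reads with cutadapt 3.4, aligned them to GRCm38 (mm10 in the labels) with STAR 2.7.8a and counted fragments by strand on GENCODE M18 with featureCounts (Subread 2.0.1), leaving out fragments with more than 1 match and keeping marked duplicates. What they deposited is the untouched counts of 54232 genes, beside each gene's exon length, another value of the authors' program. GENCODE M21, also on GRCm38, gave symbols and neighbours and named 54079 genes. All columns had a library (0 unmapped), with 18766971 to 26776555 counts a library. A floor of 3 counts came to 0.112 to 0.160 CPM, and floors and intervals cover counting error only, since amplified reads without molecular identifiers are not independent molecules.

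In R 4.3.3, edgeR 4.0.16 (limma 3.58.1) filtered genes with filterByExpr, which left 21058, scaled them with TMM and fitted 1 quasi-likelihood model of genotype. A change past 1 log2 unit was tested with glmTreat in its worst case form, and glmQLFTest tested a change of any amount. The Benjamini-Hochberg adjusted p over all genes tested had to be under 0.1. SE is that of the log2 fold change, and every adjusted p in the text comes from this model unless another test is named. Shares were set against each other in two-sided exact permutation tests at p under 0.05. The script was tested on simulated counts. The members, gene lists and tests were chosen with earlier results of these data known. Named genes are the members, Ddx25, genes within 20 kb of a member, in each pathway list genes past 1 log2 unit in KO or KI and the 2 largest rises and falls in KO among those changed by any amount, and the 5 genes nearest to Oxct2b and to Bdh1. A list is given by a single gene, and the rest of it is left out here. Promoter windows are those of RefSeq on GRCm38.p6. The alternatives were DESeq2 1.42.0, its size factors, no filter, at least 10 counts in every library, only the genotypes compared, an adjusted p under 0.05, the replicate number as a block, each library left out and close pairs (index under 4, over genes with at least 20 counts) summed without the library labelled KI 4. The interval form of glmTreat and the omission of KO 2 with the library labelled KI 4 were added after seeing the data. Plots were made in matplotlib 3.10.9 (Python 3.11.15). Protein sequences were not used here.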

Additional observations from a re-analysis of the deposited data

Results flagged for a closer look

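In groups of 6 libraries, a library was picked out where its gap to the nearest other, divided by the range of the group, exceeded Dixon's critical value for 6 samples. Of 54 groups tested over the members, the share of Oxct2a and the named pathway genes, 4 were picked out, and chance gives about 1 in 20. None was a group of a member. Acat2 was at 2.35 CPM in WT 6 and at 1.45 to 1.75 CPM in the other WT libraries. Idh2 was at 0.639 CPM in KI 3 and at 0.883 to 0.998 CPM in the other KI libraries. Etfa was at 8.13 CPM in the library labelled KI 4 and at 5.22 to 6.03 CPM in the other KI libraries. Ppargc1a was at 5.58 CPM in WT 3 and at 4.65 to 4.98 CPM in the other WT libraries.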

How the results depend on the processing

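The count of members called stayed at 2 of 5 in KO and in KI under every alternative run, except that at least 10 counts in every library left Bdh2 out and made it 2 of 4, and leaving out each library in turn gave 2 in each. The pathway genes called stayed at 0. Pathway genes changed by any amount were 16 to 23 in KO and 18 to 26 in KI with a library left out, 14 in each at an adjusted p under 0.05, and 7 in KO and 9 in KI with close pairs summed and the library labelled KI 4 left out, where WT and KI have 3 samples each. In KI against KO they stayed at 0. The share of Oxct2a above WT ranged from 6.98 to 8.37 points in KO and from 6.42 to 7.33 in KI with a library left out. With close pairs summed it was 6.26 points in KI (exact permutation p = 0.1, the smallest that 3 against 3 allow). In KI against KO the share differed by -1.43 to 0.01 points with a library left out, by -1.94 with close pairs summed and by -1.88 without KO 2 and the library labelled KI 4, and the 0.01, of the opposite sign, came without KO 3 (exact permutation p = 0.996). Of the single members, Oxct1 lost its change of any amount with close pairs summed, and Bdh2 passed in KI without KI 5 (-0.73, adjusted p = 0.0996, edgeR). For Bdh1, with no test, the log2 difference of KI from KO ranged from 0.79 without KI 6 to 0.99 without the library labelled KI 4. It was 1.11 with close pairs summed.

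The replicate numbers did not pair the libraries, since the deviations of same-numbered libraries correlated above 0.1 in 2 of 6 numbers for KO and WT, 2 of 6 for KI and WT and 3 of 6 for KI and KO. With the replicate number as a block, the members called were 2 in KO and 2 in KI, the pathway genes changed by any amount 21 and 20, and the share of Oxct2a gave p = 0.0312 in KO and in KI (exact sign-flip test of the paired differences). Not every library correlated best with its own number.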
